A study of Mus musculus with 55 samples.

Results

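The genes described here carry corticosteroid signals in lung cells: the glucocorticoid receptor gene Nr3c1, the mineralocorticoid receptor gene Nr3c2, the 11-beta-hydroxysteroid dehydrogenase genes Hsd11b1 and Hsd11b2, and the receptor cochaperone genes Fkbp4 and Ptges3. Their probe sets were taken as those whose array annotation carries only one of these 6 gene symbols, which gave 12 of 45037 probe sets, in 5 of 18193 genes. Nr3c1 had 6 such probe sets, Fkbp4 had 3, and Nr3c2, Hsd11b1 and Hsd11b2 had 1 each. The 2 probe sets of Ptges3 also carry the symbol of its pseudogene Ptges3-ps, so Ptges3 has no value here. Each gene is given by its main probe set, which is the brightest on average. A filter for values over log2 5 in at least 4 arrays passed 9 of the 12 probe sets. All 5 main probe sets were among the 9.

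Whole lung of male C57BL/6 mice was profiled on Affymetrix arrays, with 1 array for each mouse, and values are log2 values from robust multiarray averaging (RMA). Mice on the purified AIN-76A diet (AIN) or on the LRD-5001 chow (LRD) were exposed for 5 weeks to sodium arsenite. Per the labels, the mice were 6 weeks old when they went onto their diets, 2 weeks ahead of any treatment. The LRD mice fitted were 5 fed 10 ppb As in their food, 4 that drank water with 10 ppb, 3 that drank water with 100 ppb, and 4 controls. The AIN mice were 5 fed 10 ppb, 4 that drank 10 ppb, 3 that drank 100 ppb, and 5 controls. A further set of mice, all on the AIN diet, was taken 8 hours after intraperitoneal injection of 1 mg/kg dexamethasone with 1 mg/kg sodium arsenite (5 mice), dexamethasone alone (5 mice), sodium arsenite alone (4 mice) or saline (5 mice). Of 55 arrays deposited, 3 were left out, 1 each from the groups of 10 ppb in water on LRD, 100 ppb in water on AIN, and arsenite injection. Their interquartile ranges were 3.313, 2.556 and 1.802, against 3.508 to 3.935 in the other 52.

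Glucocorticoids enter cells and bind the receptor of Nr3c1 in the cytosol, where it is held ready for hormone by Hsp90 with cochaperones such as the immunophilin Fkbp52, the product of Fkbp4. The protein p23, the product of Ptges3, binds the same complex. The receptor of Nr3c2 binds aldosterone and glucocorticoids alike. The enzyme of Hsd11b2 protects it in epithelia by turning active glucocorticoid into its inert 11-keto form, and the enzyme of Hsd11b1 turns the inert form back, so the pair sets the hormone level inside a cell. In lung, glucocorticoid signalling is known for its part in maturation and surfactant production before birth.

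The chaperone genes of the receptor are also heat shock genes, and their promoters can hold heat shock elements, inverted repeats of the unit GAA. The 250 bases before the start of Fkbp4 are shown because this gene and 4 other cochaperone genes passed the test, all as lower, in one comparison of injected mice. They lie on the minus strand at chr6:128438657-128438906 (GRCm38.p6, promoter sequences from RefSeq), and capitals mark the match to the pair of inverted units GAANNTTC.
Fkbp4: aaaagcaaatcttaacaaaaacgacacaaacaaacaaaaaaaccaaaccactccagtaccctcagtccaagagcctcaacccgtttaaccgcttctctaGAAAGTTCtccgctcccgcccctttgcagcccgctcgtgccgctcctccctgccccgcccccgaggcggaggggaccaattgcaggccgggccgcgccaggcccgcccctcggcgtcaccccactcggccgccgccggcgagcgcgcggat
Dnaja1, one of the 4 other cochaperone genes, and the receptor gene Nr3c2 also held the motif, and 48 bases around each match follow, from the plus strand at chr4:40722324-40722371 and chr8:76902159-76902206.
Dnaja1: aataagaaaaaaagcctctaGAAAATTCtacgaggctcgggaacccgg
Nr3c2: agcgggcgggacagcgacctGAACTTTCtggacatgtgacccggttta
The matches start 151 bases before the gene start in Fkbp4 and Nr3c2 and 124 bases before it in Dnaja1, in 1 of its 3 annotated starts. The motif reads the same on both strands, and 6.69% of all 32851 promoters of this length held it. The promoters of Hsd11b1, Ptges3, Stip1 and Ahsa1 held no match to these letters in this window. Those of Hsph1, the gene most like Fkbp4 over the 52 arrays, held none either. The half-site of the glucocorticoid response element, AGAACA or TGTTCT for the other strand, was in 16.1% of all promoters and in none of those of Nr3c2, Hsd11b1, Fkbp4 and Ptges3. Promoters of Nr3c1, Hsd11b2 and St13 were not matched.

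In lung, Hsd11b1 had the brightest of the main probe sets, with a mean of 12.06 over the 52 arrays, above 99.4% of all probe sets in rank. The means of the others were 10.07 for Nr3c1, 8.96 for Fkbp4, 6.08 for Nr3c2 and 5.63 for Hsd11b2. These are levels of probe sets and set no order between the genes. Over the 12 groups, the group means of Nr3c1 spanned 0.484, those of Nr3c2 0.558, those of Hsd11b1 0.607 and those of Fkbp4 0.627 on the log2 scale, and those of Hsd11b2 spanned 1.52. When groups were put in order of level, all 11 neighbouring pairs lay closer than 1 pooled SD for Nr3c1, Nr3c2 and Hsd11b1. For Hsd11b2 and Fkbp4, 10 of 11 pairs did.

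The first comparison asked whether the diets differed. Hsd11b2 was 2.11-fold higher on LRD than on AIN. Its log2 levels in the LRD mice were 6.11, 6.21, 6.34, 7.29 and 6.60 after 10 ppb in food, 5.93, 6.69, 5.90 and 6.36 after water with 10 ppb, 6.31, 6.45 and 6.58 after water with 100 ppb, and 5.84, 6.32, 5.94 and 6.63 in controls. In the AIN mice they were 5.25, 5.11, 5.35, 5.32 and 5.14 after 10 ppb in food, 5.22, 5.43, 5.55 and 4.89 after water with 10 ppb, 5.14, 5.33 and 5.81 after water with 100 ppb, and 5.17, 5.22, 5.12, 5.04 and 5.09 in controls. Every one of the 16 LRD mice was above every one of the 17 AIN mice, the closest being the LRD control at 5.84 and the AIN mouse with 100 ppb in water at 5.81. The log2 difference was 1.07 (SE 0.124, 95% confidence interval 0.82 to 1.32, limma adjusted p = 2.85e-07), and Hsd11b2 ranked 8th by p of all probe sets. A permutation test over mice gave a two-sided p = 2e-05, the smallest that 100000 resamples can give. Hsd11b2 was the 1 of 12 probe sets of these genes that passed in this comparison, against 0.153% of all probe sets. Only 6 probe sets, 0.0133%, did not overlap between the diets. In whole lung RNA, more cells of a type and more RNA per cell cannot be told apart.

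**Figure D1:**
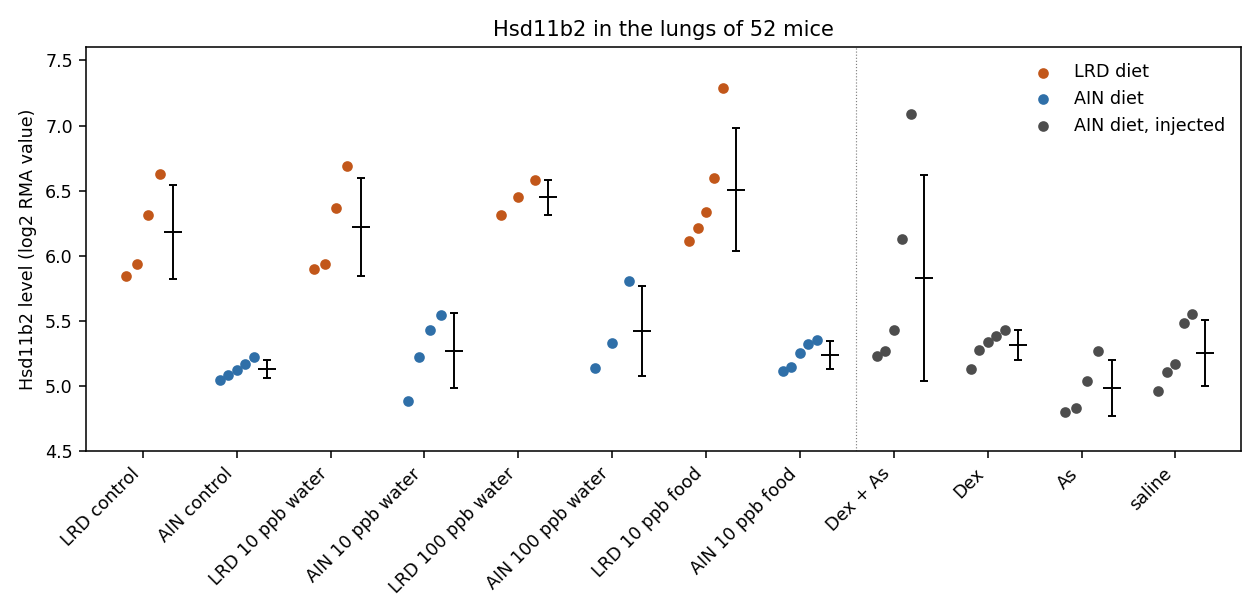
Log2 RMA level of Hsd11b2 (vertical axis) in each of 52 mice, by group (horizontal axis, LRD left of AIN at each exposure, injected mice right of the dotted line). Points are mice, and the bar beside them is the mean with the SD. The 16 LRD mice lie at 5.84 to 7.29 and the 17 uninjected AIN mice at 4.89 to 5.81, and 2 of the 5 mice given dexamethasone with arsenite lie at 6.13 and 7.09.

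The difference was present at each exposure taken alone. Among controls Hsd11b2 averaged 6.18 ± 0.36 on LRD (SD, n = 4) and 5.13 ± 0.070 on AIN (n = 5), 2.07-fold apart (exact permutation p = 0.0159, two-sided, the smallest this design allows). With 10 ppb in water it averaged 6.22 ± 0.38 on LRD and 5.27 ± 0.29 on AIN (n = 4 each), 1.93-fold apart (exact p = 0.0286, the smallest possible). With 100 ppb in water the means were 6.45 ± 0.14 on LRD and 5.42 ± 0.34 on AIN (n = 3 each), 2.03-fold apart, and 3 mice against 3 cannot go below an exact p = 0.1. With 10 ppb in food they were 6.51 ± 0.47 on LRD and 5.24 ± 0.11 on AIN (n = 5 each), 2.41-fold apart (exact p = 0.00794, the smallest possible). The diets did not overlap at any of the 4 exposures. By the batch code in the raw array names, LRD was also higher in all 5 batches, by 0.624 to 1.43 on the log2 scale. When only the control mice of the diets were compared, the log2 difference of 1.05 did not pass over all probe sets (limma adjusted p = 0.20).

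None of the other 4 genes passed between the diets. Nr3c1 was 0.18 higher on LRD (95% confidence interval 0.017 to 0.34, limma adjusted p = 1.00). Nr3c2 was 0.21 higher (0.015 to 0.41, limma adjusted p = 1.00). At 10 ppb in water alone, Nr3c2 did not overlap between the diets, with 6.26 to 6.46 on LRD and 5.19 to 6.20 on AIN (n = 4 each, exact permutation p = 0.0286, two-sided, the smallest possible). The share of all probe sets without overlap at this exposure was not counted. The AIN mouse at 5.19, replicate E, was also high in thymus markers (9.96). At the other 3 exposures Nr3c2 overlapped, and with 10 ppb in food it was lower on LRD by 0.13. Fkbp4 differed by -0.05 (-0.18 to 0.074) and Hsd11b1 by -0.00013 (-0.16 to 0.16). Among 4 measured genes of other steroid receptors, only Pgr, the progesterone receptor gene, passed. It was higher on LRD by 0.43 (SE 0.098, limma adjusted p = 0.0451; 0.247% of genes passed as higher), and this call was lost when any of 26 of 33 mice was left out, with adjusted p up to 0.201. None of the 16 measured receptor chaperones and cochaperones, 11 coregulators of the receptors, 21 induced glucocorticoid targets, 9 sodium transport targets of the mineralocorticoid receptor or 13 genes of glucocorticoid synthesis and inactivation passed. Beside Hsd11b2, the probe sets that did not overlap between the diets were those of Cyp1a1, Ppp2r2c, Enpp6 and Rbp7, named after their values were seen, and 1 without a gene name.

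The genes most like Hsd11b2 over the 52 arrays, of 11208 genes searched, were Cyp1a1 (Pearson r = 0.809), Slc45a4 (0.771) and Psen2 (0.747). Cyp1a1 encodes a cytochrome P450 that is induced through the Ah receptor. The diets separate the arrays in these correlations. Within the 16 LRD mice r with Cyp1a1 was -0.081, and within the 36 mice on AIN it was 0.444. Cyp1a1 averaged 9.21 on LRD but 3.91 in uninjected AIN mice. The latter is under the log2 5 that the search asked of the mean over all arrays. For Psen2, which encodes a presenilin, r was 0.642 within LRD and 0.327 within AIN. For Slc45a4 it was 0.46 within LRD and 0.473 within AIN. The correlations of Hsd11b2 with the other 4 genes ran from -0.254 to 0.035.

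The levels of lung cell markers overlapped between the diets. The mean of 6 alveolar type II markers was 12.51 to 12.99 on LRD and 11.93 to 12.86 on AIN, and that of 8 endothelial markers was 10.17 to 10.83 on LRD and 9.55 to 10.89 on AIN. Markers of club cells (12.51 to 13.54 on LRD and 11.88 to 13.66 on AIN) and ciliated cells (8.27 to 8.73 on LRD and 7.75 to 9.04 on AIN) overlapped as well. Single mice of both diets were high in other tissues: skeletal muscle markers reached 10.56 on LRD and 10.09 on AIN, against medians of 4.19 on LRD and 4.20 on AIN. Markers of the adrenal cortex were low on both diets, at 3.67 to 4.07 on LRD and 3.73 to 4.06 on AIN. B cell markers were 6.41 to 7.44 on LRD and 4.89 to 7.92 on AIN. The part of cell makeup in the difference of Hsd11b2 was not tested.

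The next comparison asked what dexamethasone did beside arsenite. Fkbp4 was 8.78, 8.87, 8.81, 9.08 and 9.03 after dexamethasone with arsenite, against 9.37, 9.10, 9.63 and 9.41 after arsenite alone. All 5 mice given both were below all 4 given arsenite. Fkbp4 was 0.47 lower (SE 0.12, 95% confidence interval -0.71 to -0.22, 0.724-fold, limma adjusted p = 0.0303; exact permutation p = 0.0159, two-sided, the smallest possible). It was lower in the 3 batches that hold both groups, by 0.235 to 0.713, with 1 mouse against 1 or 2 in each. Fkbp4 was 1 of 12 probe sets of these genes that passed, against 1.53% of all probe sets, and 4.22% of all probe sets did not overlap between these groups. The call did not hold in every setting. With the replicate letter as a block the adjusted p was 0.0548, and leaving out any of 6 of the 9 mice gave 0.061 to 0.221, the highest without arsenite replicate C. With the array of arsenite replicate E kept in, which read 4.04 for Fkbp4, the difference turned to 0.60 (adjusted p = 0.37).

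Fkbp4 did not stand alone. Of 16 measured genes of receptor chaperones and cochaperones, 10 were lower after dexamethasone with arsenite than after arsenite, and 4 of these passed. None passed as higher, against 1.55% of all genes called lower and 0.841% called higher, and the median change was -0.29, against -0.012 over all genes. Dnaja1, an Hsp40 that loads clients onto Hsp70, was lower by 0.86 (SE 0.23, limma adjusted p = 0.0425). Stip1, the Hop protein that joins Hsp70 to Hsp90, was lower by 0.85 (SE 0.21, adjusted p = 0.0206). St13, which encodes the Hsp70-interacting protein Hip, was lower by 0.58 (SE 0.12, adjusted p = 0.00309), and Ahsa1, the activator of the Hsp90 ATPase, by 0.50 (SE 0.11, adjusted p = 0.00833). Each of these 4 calls was lost without arsenite replicate C, with adjusted p of 0.18 for Dnaja1, 0.238 for Stip1, 0.0612 for St13 and 0.122 for Ahsa1. Dnaja1 further lost it without any of 6 other mice, and Stip1 without any of 2 others. All 4 were lost in a fit of the injected mice alone, and 3 of them (Dnaja1, St13 and Ahsa1) changed sign with arsenite replicate E kept in. Hsp90aa1, the inducible Hsp90 gene, named for its role after its values were seen, differed by -0.62 and did not pass (adjusted p = 0.156).

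**Figure D2:**
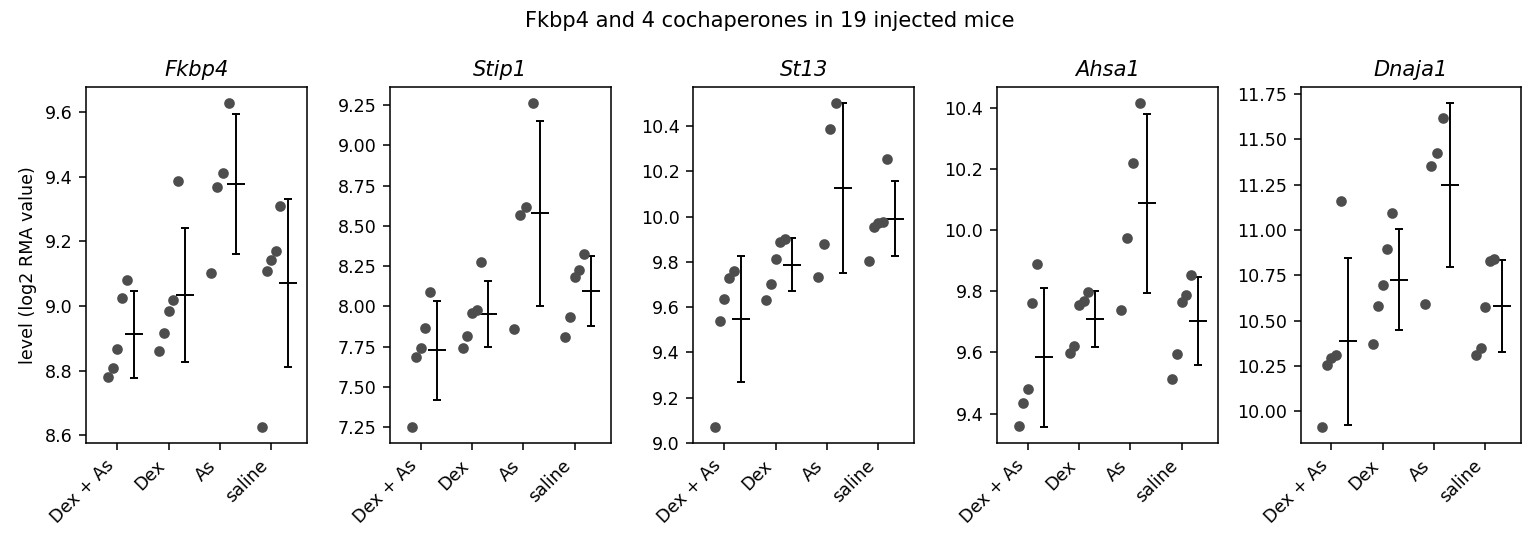
Log2 RMA levels (vertical axes, each with its own range) of Fkbp4 and the 4 cochaperone genes that passed, in 19 injected mice by injection (Dex, dexamethasone; As, arsenite). Points are mice, and the bar beside them is the mean with the SD. The 4 mice given arsenite alone have the highest mean in all 5 genes, 9.38 for Fkbp4, against 8.91 after dexamethasone with arsenite.

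The highest Fkbp4 mean of all 12 groups was that of arsenite injection, 9.38 ± 0.22 (n = 4), and the lowest that of AIN mice with 10 ppb in water, 8.75 ± 0.16 (n = 4). The gap below arsenite injection, 0.268, was the one gap between neighbours in this order that exceeded the pooled SD of 0.178. Fkbp4 differed by 0.31 between arsenite and saline injection (0.065 to 0.55, limma adjusted p = 0.721) and by -0.04 between dexamethasone and saline injection (-0.27 to 0.19). The genes most like Fkbp4 over the 52 arrays were Hsph1 (r = 0.859), which encodes an Hsp110, Ahsa1 (0.766) and Stip1 (0.741). Without the 4 arsenite mice these were 0.779, 0.628 and 0.59. Lymphocyte markers were lower after dexamethasone with arsenite than after arsenite. The mean of 4 of 5 B cell markers was 4.79 to 5.85 after dexamethasone with arsenite and 6.04 to 6.94 after arsenite, and that of 4 of 5 T cell markers was 4.62 to 5.16 after dexamethasone with arsenite and 5.27 to 5.81 after arsenite. After dexamethasone alone, the medians of these markers were 5.32 for B cells and 4.97 for T cells, against 6.47 and 5.54 after saline. The groups overlapped. B cell markers were 4.78 to 6.50 after dexamethasone and 5.23 to 7.91 after saline, and T cell markers were 4.77 to 5.21 and 5.10 to 8.44. Fibroblast markers overlapped (8.88 to 10.19 after both agents and 9.97 to 10.17 after arsenite), although 1 of 7, the collagen gene Col3a1, was lower by 0.98 (adjusted p = 0.0248). Col3a1 lost this call without any of 4 of 9 mice, and was lower by 0.61 without replicate A of the mice given both agents (adjusted p = 0.132). Its mean was 11.1 after dexamethasone alone and 11.8 after saline. Neutrophil markers, at 7.47 to 10.69 after both agents and 7.94 to 10.35 after arsenite, overlapped too. The part of lymphocytes, fibroblasts and neutrophils in the lower Fkbp4 was not tested.

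Hsd11b2 differed in the same comparison by 0.84 (SE 0.24, 0.37 to 1.32) and missed the threshold (limma adjusted p = 0.0528). The 5 mice given both agents had 7.09, 5.23, 5.43, 6.13 and 5.27, against 4.83, 5.27, 5.04 and 4.80 in the mice given arsenite. The groups overlapped, and replicates A and E of the mice given both were the high ones. Without replicate A the difference was 0.53. Within the 3 batches that hold both groups, which do not hold these 2 mice, it was -0.034 to 0.51, with 1 mouse against 1 or 2 in each. Nr3c1 had 9.37, 9.94, 10.23, 9.70 and 10.03 after dexamethasone with arsenite, against 10.27, 10.16, 10.35 and 10.55 after arsenite. It differed by -0.48 (-0.78 to -0.18) and missed the threshold as well (adjusted p = 0.108). Within the 3 shared batches, of the same few mice, it was lower by 0.218 to 0.241. Of 10 other settings that left out no mouse, Nr3c1 passed in 1, with batch and array weights together in the fit. That setting was added after the data were seen, and in it Nr3c1 was lower by 0.32 (limma adjusted p = 0.0418). The next brightest probe set of Nr3c1, 1460303_at, differed by -0.35 (adjusted p = 0.105). The dimmer probe sets did not agree. 1457635_s_at averaged 6.26 after both agents and 6.61 after arsenite. 1421866_at was higher after both agents, at 6.215 against 5.897, as was 1453860_s_at, at 5.16 against 4.935. Hsd11b1 differed by 0.07 (-0.23 to 0.37) and Nr3c2 by 0.12 (-0.25 to 0.50).

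Dexamethasone alone moved none of these genes past the threshold, against 1.14% of all probe sets. All 12 of their probe sets overlapped between the groups, and 2.14% of all probe sets did not. Relative to saline, Nr3c1 differed by 0.05 (95% confidence interval -0.24 to 0.33), Nr3c2 by 0.27 (-0.077 to 0.62), Hsd11b1 by 0.20 (-0.079 to 0.49) and Hsd11b2 by 0.06 (-0.39 to 0.50). For Nr3c1 the direction turned with the batch: in the 3 batches that hold both groups it was lower after dexamethasone, by 0.164 to 0.173. Each of these batches sets 1 mouse against 1. These intervals leave room for changes of up to 1.54-fold in Nr3c2. The injection was checked on known glucocorticoid targets. Of 21 induced targets, 1 passed, against 0.583% of all genes called higher. Sult1a1, a phenol sulfotransferase, averaged 11.39 ± 0.21 after dexamethasone and 10.49 ± 0.52 after saline (n = 5 each, limma adjusted p = 0.0225). Its call was lost without any of 4 of 10 mice, with adjusted p of 0.0592 to 0.173. It was also lost in 2 of 10 other settings, among them a fit of the injected mice alone (0.0703). The median change of the 21 was -0.063, against -0.0052 over all genes. Fkbp5, the immunophilin gene best known as a target of the receptor, averaged 8.91 ± 0.50 after dexamethasone and 8.84 ± 0.97 after saline. Relative to uninjected AIN controls, where Fkbp5 averaged 7.45 ± 0.29 (n = 5), 19 of the 21 targets were higher after saline injection, with a median of 0.62. None passed, against 0.00222% of all probe sets. Markers of other tissues were high in some mice of the saline group and of the dexamethasone group. After saline, thymus markers reached 8.075, T cell markers 8.44 and fat markers 9.59, against at most 3.79, 5.21 and 8.78 after dexamethasone. After dexamethasone, skeletal muscle markers reached 6.99 and heart muscle markers 11.8, against at most 4.71 and 11.13 after saline. The median of fat markers was 8.02 after dexamethasone and 6.39 after saline. The part of other tissue in these comparisons was not tested. Among 13 genes of glucocorticoid synthesis and inactivation, Cyp3a13, a steroid hydroxylase, was higher by 0.72 after dexamethasone than after saline (adjusted p = 0.0349). This call was lost without any of 7 of 10 mice, with adjusted p of 0.0576 to 0.147, and in 3 of 10 other settings.

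With arsenite in both groups the targets were further apart. Of the 21 induced targets, 19 were higher after dexamethasone with arsenite than after arsenite, with a median of 0.634, and again only Sult1a1 passed. All 9 measured sodium transport targets of the mineralocorticoid receptor were higher too, with a median of 0.299, and none passed. Sult1a1 averaged 11.45 ± 0.29 with both agents and 9.83 ± 0.44 with arsenite (n = 5 and 4, adjusted p = 6.1e-05), and kept its call without any of the 9 mice. Cyp3a13 was higher by 0.79 (adjusted p = 0.0229). It lost the call without any of 5 of 9 mice (0.0508 to 0.123) and in 3 of 10 other settings. The difference between the dexamethasone responses with and without arsenite was tested for each gene. It passed for 0% of probe sets, and 3.56% had an unadjusted p under 0.05. For Fkbp4 it was -0.43 (SE 0.16), for Nr3c1 -0.53 (SE 0.21) and for Hsd11b2 0.79 (SE 0.32), each with a limma adjusted p = 1.00. Without replicate A of the mice given both agents, the value of Hsd11b2 was 0.47.

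Arsenite injection moved no probe set past the threshold relative to saline, 0% in all, with 6.24% under an unadjusted limma p of 0.05 and 308 probe sets, none of these genes among them, called by the rank product. Hsd11b1 had 12.45, 12.03, 12.24 and 12.27 after arsenite, against 11.88, 11.96, 11.94, 11.78 and 11.89 after saline. The groups did not overlap (exact permutation p = 0.0159, two-sided, the smallest possible), as was the case for 2.58% of all probe sets. The difference of 0.36 (0.061 to 0.66) did not pass over all probe sets (limma adjusted p = 0.73). Nr3c1 differed by 0.44 (0.14 to 0.74, adjusted p = 0.696) and Hsd11b2 by -0.27 (-0.74 to 0.20). With the array of arsenite replicate E kept in, the differences turned to -1.43 for Hsd11b1 and -0.35 for Nr3c1. Arsenite added to dexamethasone also moved 0% of probe sets, with 2.44% under an unadjusted p of 0.05 and 193 called by the rank product, and Hsd11b2 differed by 0.52 (0.069 to 0.96, limma adjusted p = 1.00). That difference rested on replicate A of the mice given both agents: without it the value was 0.20. By batch it was 1.66 in the batch of this mouse and -0.076 to 0.135 in the other 3, with 1 mouse against 1 or 2 in each. Saline injection against uninjected AIN controls moved 0.00222% of probe sets and none of these genes.

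**Figure D3:**
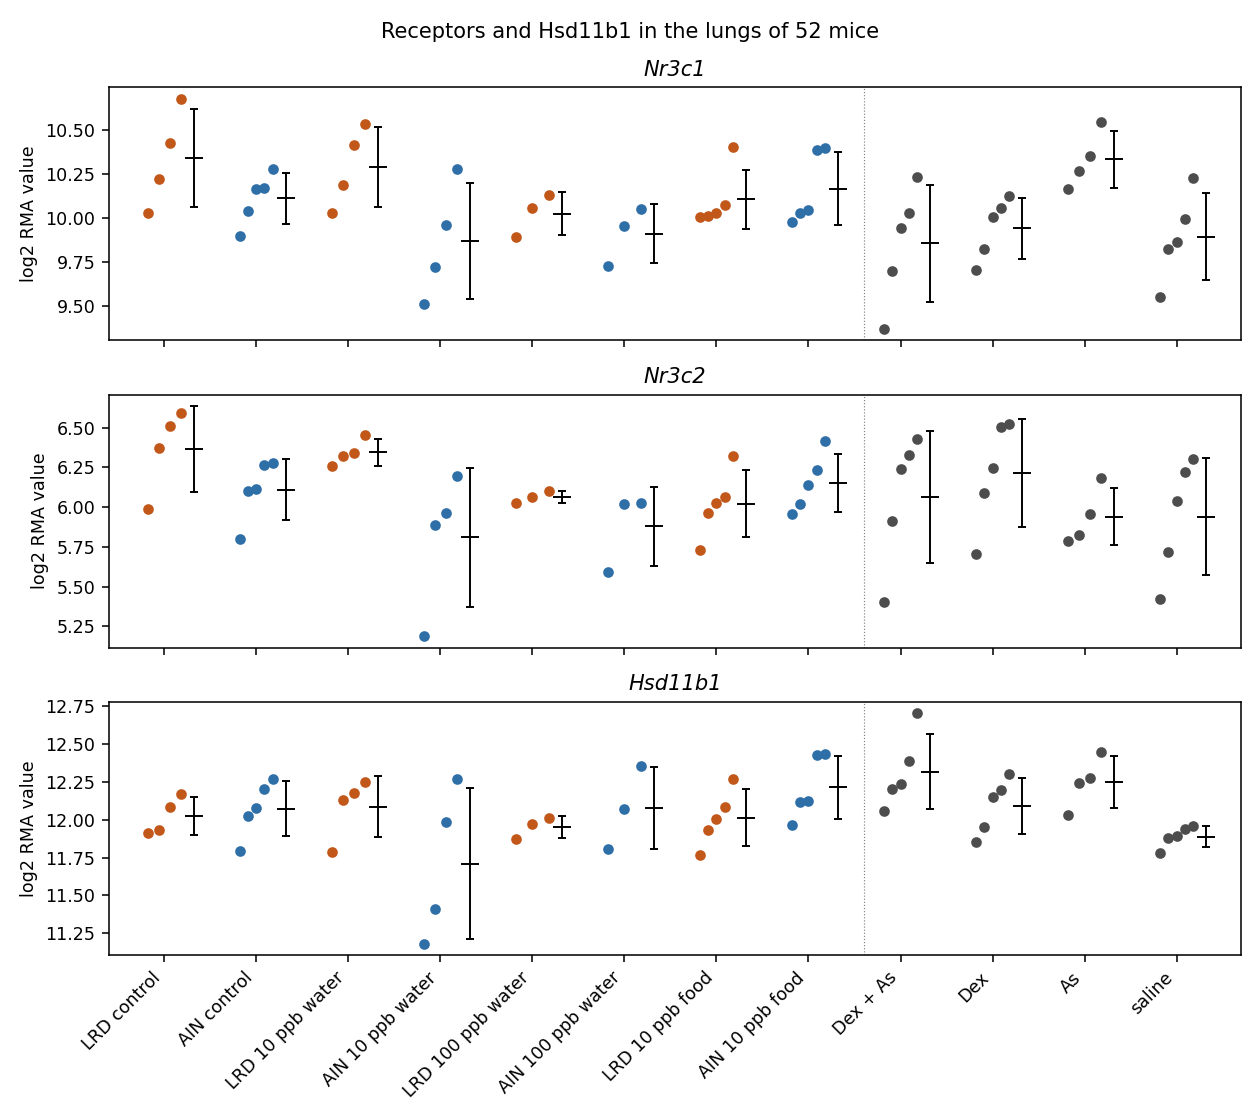
Log2 RMA levels (vertical axes) of Nr3c1, Nr3c2 and Hsd11b1 in 52 mice by group (horizontal axis, orange for LRD, blue for AIN, grey for injected mice on AIN; Dex, dexamethasone; As, arsenite). Points are mice, and the bar beside them is the mean with the SD. Neighbouring groups in order of level lie within 1 pooled SD, and Hsd11b1 in the 4 arsenite mice, 12.03 to 12.45, lies above the 5 saline mice, 11.78 to 11.96.

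Exposure for 5 weeks was compared with the controls of the same diet. The adjusted test passed for 0% of probe sets in each of the 6 comparisons, so none of these genes passed. At 10 ppb in water on AIN, 13.8% of all probe sets had an unadjusted p under 0.05, and Hsd11b1 was among them. It was 11.41, 12.27, 11.98 and 11.18 in the exposed mice, against 11.80, 12.02, 12.27, 12.20 and 12.08 in controls. The groups overlapped, and the exposed mice spread wider (SD 0.50 against 0.18). The difference was -0.36 (-0.66 to -0.063, limma adjusted p = 0.267). Over the 9 ways to leave out a mouse it was -0.55 to -0.19. It passed without replicate C of the exposed mice, the one at 12.27 (adjusted p = 0.0207), and was smallest without replicate E, the one at 11.18 (adjusted p = 0.679). The receptor genes differed in the same direction, Nr3c1 by -0.24 (-0.55 to 0.059) and Nr3c2 by -0.30 (-0.67 to 0.071), as did Fkbp4 by -0.22 (-0.47 to 0.017). None of these passed. Leaving out exposed replicate A brought Nr3c1 to -0.12, and leaving out replicate E brought Nr3c2 to -0.094. Markers of other tissues were high in the same 2 mice. Thymus markers read 9.96 and T cell markers 10.04 in exposed replicate E, against at most 3.96 and 5.75 in controls, and fat markers read 10.35 in replicate A and 8.70 in replicate E, against at most 6.30 in controls. Endothelial markers read 9.91 in replicate A and 9.55 in replicate E, against 10.56 to 10.89 in controls. These are the mice with the lowest Hsd11b1, at 11.41 and 11.18. The part of other tissue in these differences was not tested.

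In the other 5 comparisons with controls the share of probe sets with an unadjusted limma p under 0.05 was 2.5% for 10 ppb in food, 3.45% for 10 ppb in water and 3.24% for 100 ppb in water on LRD, and 2.28% for 10 ppb in food and 2.08% for 100 ppb in water on AIN. The rank product, which ranks differences between pairs of mice, called 14 to 196 probe sets in the 6 comparisons and none of these genes. At 100 ppb in water, Nr3c1 differed by -0.31 (-0.66 to 0.030) on LRD and by -0.20 (-0.53 to 0.13) on AIN. Nr3c2 differed by -0.30 (-0.73 to 0.12) on LRD and by -0.23 (-0.64 to 0.17) on AIN. With 10 ppb in food, Nr3c2 differed by -0.34 (-0.72 to 0.027) on LRD and by 0.04 (-0.31 to 0.39) on AIN. Hsd11b2 was measured above controls in all 6 comparisons, by 0.04 to 0.33, each with an interval that included 0. The smallest, at 10 ppb in water on LRD, changed sign when single mice were left out (-0.12 to 0.19), and that at 10 ppb in food on LRD was 0.13 without replicate E of the exposed mice. The 3 exposures of one diet share their control mice. On LRD the batches that also hold controls are few: 1 for 10 ppb in water, with 1 mouse against 1. For 100 ppb in water there are 2 and for 10 ppb in food 3. The difference of the responses between the diets was tested for each exposure and passed for 0 of 45037 probe sets. The largest for a main probe set was that of Hsd11b1 at 10 ppb in water, 0.42 (SE 0.22, limma adjusted p = 0.432).

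**Figure D4:**
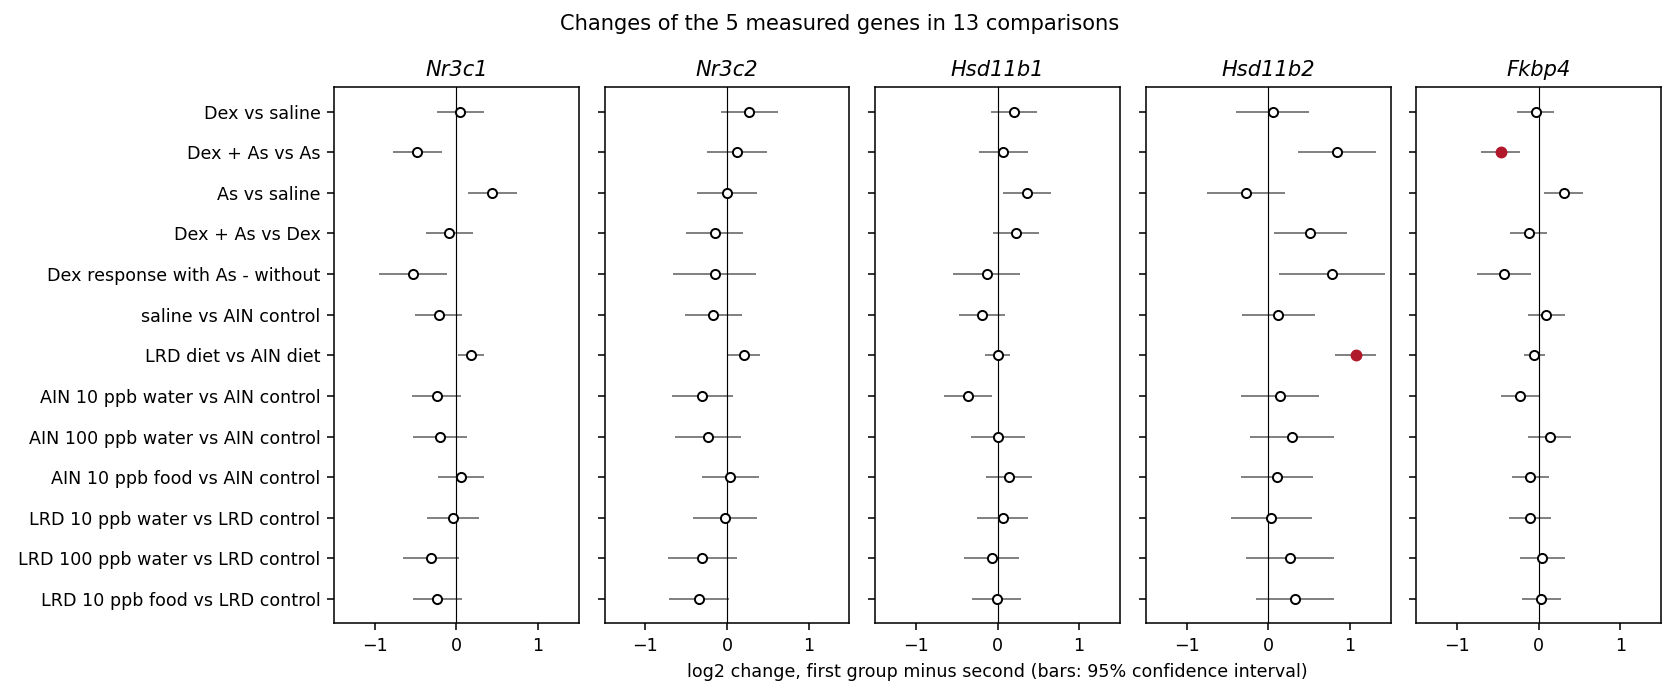
Log2 change of each measured gene (horizontal axis, first group minus second) in 13 comparisons (vertical axis; Dex, dexamethasone; As, arsenite). Points are limma estimates with 95% confidence intervals, and filled points passed an adjusted p of 0.05. Filled points are Hsd11b2 for LRD against AIN at 1.07 and Fkbp4 for dexamethasone with arsenite against arsenite at -0.47.

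The probe sets of one gene did not all follow each other. Over the 52 arrays the main probe set of Nr3c1, 1421867_at, correlated with 1460303_at at r = 0.728, with 1421866_at at 0.559 and with 1457635_s_at at 0.501. With 1453860_s_at, whose mean was 5.11, r was 0.045, and with 1431378_at, under log2 5 on all arrays, it was 0.011. The main probe set of Fkbp4, 1416362_a_at, correlated with the 2 dim ones at -0.046 and 0.132, and these were under log2 5 on all arrays too. The receptor genes correlated with each other at 0.52 and with Hsd11b1 at 0.469 (Nr3c1) and 0.421 (Nr3c2). The genes most like Nr3c1 were Atp1b3 (r = 0.806), a subunit of the sodium pump, Ccdc50 (0.792) and Magi3 (0.789). Those most like Nr3c2 were Tbc1d19 (0.813), Tmx4 (0.781) and Angpt2 (0.78), which encodes an endothelial growth factor. Those most like Hsd11b1 were Nox4 (0.89), an NADPH oxidase gene, Rab1a (0.886) and Nebl (0.871). In all these correlations the values of a pair come from the same arrays and share their normalization.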

How the data were processed

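The authors made the deposited values, on a log2 scale, from the raw arrays with RMA, and it is not given in the sources used here on which arrays RMA was run jointly. The members and gene lists were chosen with earlier results of these data known. Of 45101 probe sets, 64 controls were left out. Genes were named only from probe sets with 1 symbol: 34945 have 1, 932 several and 9160 none. Entrez numbers matched 34741 to a mouse annotation, which changed 0 symbols.

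Groups came from the labels. One linear model over 52 arrays with 12 group means was fitted with limma 3.58.1 in R 4.3.3 (eBayes, Benjamini-Hochberg over 45037 probe sets, threshold 0.05). It gives each comparison and the confidence intervals. Permutation tests used scipy 1.17.1, two-sided, and were exact where a group held under 10 mice. The number of arrays limits the precision. The labels call the mice of a group biological replicates. The labels' replicate letters did not pair mice: deviations of same-letter mice of different groups had a median r of 0.0102 and those of other mice -0.00731. Mice of the same batch code had a median r of 0.194, and those of different codes -0.0508. The main fit and the permutation tests did not include the batch. No 2 arrays were identical. All genes above were named, up to 4 genes per list that passed, and 3 genes most alike per gene with a mean over log2 5. The scripts were tested on simulated data, where the rank product made many more false calls than it estimated once probe sets differed in spread, so its counts are given for completeness only. Alternatives were batch or letter as a block, all 55 arrays, separate fits, a dim filter, quantile or median scaling, array weights, the rank product with 100 orderings, and leaving out each mouse. Batch and weights together were added after the data were seen.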

Additional observations from a re-analysis of the deposited data

Results flagged for a closer look

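Single mice stood apart in 2 of 50 pairs of a gene and a group of 4 to 10 mice, and chance flags about 1 in 20. The 5 genes share the same mice, so the 50 are not independent. Nr3c1 in LRD mice with 10 ppb in food was 10.404 in replicate B, and the next mouse was at 10.073. Fkbp4 in LRD mice with 10 ppb in water was 8.951 in replicate B, and the next mouse was at 8.732.

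Hsd11b2 was above the controls on 2 of the 3 arrays left out. It read 6.18 on arsenite injection replicate E, against 4.80 to 5.27 in the other mice of that group and 4.96 to 5.56 in saline mice. On the same array Hsd11b1 read 3.28, against 12.03 to 12.45 in the other mice, and Fkbp4 read 4.04, against 9.10 to 9.63. On 100 ppb water replicate B of AIN, Hsd11b2 read 5.633, against 5.14 to 5.81 in the other mice and 5.04 to 5.22 in AIN controls. The left-out LRD array with 10 ppb in water read 5.66 for Hsd11b2, below the 5.90 to 6.69 of its group and within the range of the AIN mice.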

How the results depend on the processing

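Of 278 counts of these probe sets under alternatives, 264 were unchanged, and of 1605 single values 1482 kept their direction and side of the threshold or moved by less than the spread between mice. Hsd11b2 on LRD against AIN was 1.025 to 1.122 when any of 33 mice was left out, with 1 of 12 probe sets passing each time, and 1.033 to 1.085 in the other settings; with control mice only it was 1.052 (adjusted p 0.20), so that 0 passed. It kept its call with the replicate block, at 1.058. For dexamethasone with arsenite against arsenite, Fkbp4 was -0.4594 with the replicate block (adjusted p 0.0548), -0.4656 in separate fits (0.146) and by the rank product (0.294), and 0.6022 with all 55 arrays. Leaving out a mouse gave -0.5575 to -0.3825. With the replicate block, all 55 arrays or separate fits, 0 of the 12 probe sets passed; with the dim filter, or batch and array weights together, 2 passed; leaving out a mouse gave 0 to 3. With all 55 arrays Dnaja1 turned to 0.255, St13 to 0.5242, Ahsa1 to 0.8418 and Col3a1 to 0.4402. Hsd11b2 passed there with the dim filter (adjusted p 0.0296) and the rank product (0.0154), and without any of 4 of 9 mice. Nr3c1 passed there with batch and array weights (-0.3208, adjusted p 0.0418) and without dexamethasone and arsenite replicate D (-0.5732, 0.0361), and was 0.3138 with all 55 arrays. At 10 ppb in water on AIN, leaving out a mouse gave 0 to 1 passing. The rank product was not run for the diets. The replicate block changed no other call of these genes. The cause was not tested, other than that all 55 arrays add 1 arsenite array of low quality and the control-only setting uses fewer mice. Probe sets called in all for dexamethasone with arsenite against arsenite were 687, but 243 with all 55 arrays, 280 in separate fits, 1062 with the batch, 1185 with array weights, 1822 with both and 1172 by the rank product; for the diets they were 69, but 35 with all 55 arrays and 6 with control mice only.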
